A study of Mus musculus with 16 samples.

Results

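Dlg1, Dlg2, Dlgap1, Dlgap2, Magi1 and Magi2 are 6 of the 21887 protein-coding genes over which DNA double-strand breaks were mapped by END-seq, an assay that sequences the ends left by such breaks. The 6 were chosen by name, as junction and synapse scaffold genes, and every END-seq peak that overlapped a gene span or the 1 kb on either side of it was taken. Merging the overlapping peaks of all 6 lists gave 46216 regions in the genome, of which 104 lay at these genes, every one inside a gene span. The libraries came from cardiac myocytes isolated by Langendorff perfusion from 3 Myh6-Cre:LmnaF/F mice (cKO below) and 3 wild-type mice (WT). In cKO mice the Myh6 promoter, which is active in cardiac myocytes, drives Cre, and Cre removes the floxed Lmna gene, source of lamins A and C. No group is labelled as Cre with intact Lmna, so Cre and the deletion cannot be told apart, and the labels give no age or sex. END-seq reports DNA and not RNA, so neither the cell type nor the activity of these genes could be checked in the lists.

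Scaffold proteins hold receptors, channels and adhesion molecules in place under the cell membrane. The Dlg genes encode membrane-associated guanylate kinases, whose PDZ domains bind the tails of channels and receptors and whose guanylate kinase domain binds the Dlgap proteins. Dlg1 encodes SAP97, which in myocytes binds potassium and sodium channels at the sarcolemma, and Dlg2 encodes a close relative best known from the postsynaptic density of neurons. Dlgap1 and Dlgap2 encode postsynaptic adaptors that link Dlg proteins to the Shank scaffolds. Magi1 encodes an inverted guanylate kinase of tight and adherens junctions, and Magi2 its relative at synapses and in kidney podocytes.

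The 3 cKO lists held 13630 to 29743 peaks and the 3 WT lists 1345 to 15458 on chromosomes 1 to 19, X and Y. How deeply each library was sequenced is unknown, and the lack of a peak at a site leaves unsaid whether breaks occurred there. WT 1 had by far the shortest list, 1345 peaks. In the list labelled cKO 1, peak names start with WT-4, a prefix shared with WT 3. The label was followed here. Without cKO 1, the differences in peak number between cKO and WT given below were 1.0 at Dlg1, 8.5 at Dlg2, 2.67 at Dlgap1, 3.5 at Dlgap2, 3.5 at Magi1 and 3.83 at Magi2, all still positive, and 81 regions were left at the 6 genes.

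Summed over the 6 genes, peak numbers followed the length of each list. Together the genes had 66, 33 and 51 peaks in cKO 1, cKO 2 and cKO 3, against 3, 38 and 16 in WT 1, WT 2 and WT 3. WT 2 thus had more peaks here than cKO 2, and the groups overlapped. These peaks made up 0.222%, 0.242% and 0.229% of the cKO lists, against 0.223%, 0.246% and 0.192% of the WT lists. The 6 spans make up 0.222% of the sequence between the outermost peaks of the chromosomes, so that each list placed about as many peaks here as an even spread would. An even spread gives 65.9, 30.2 and 49.5 peaks in cKO 1, cKO 2 and cKO 3, against 2.98, 34.3 and 18.4 in WT 1, WT 2 and WT 3.

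**Figure D1:**
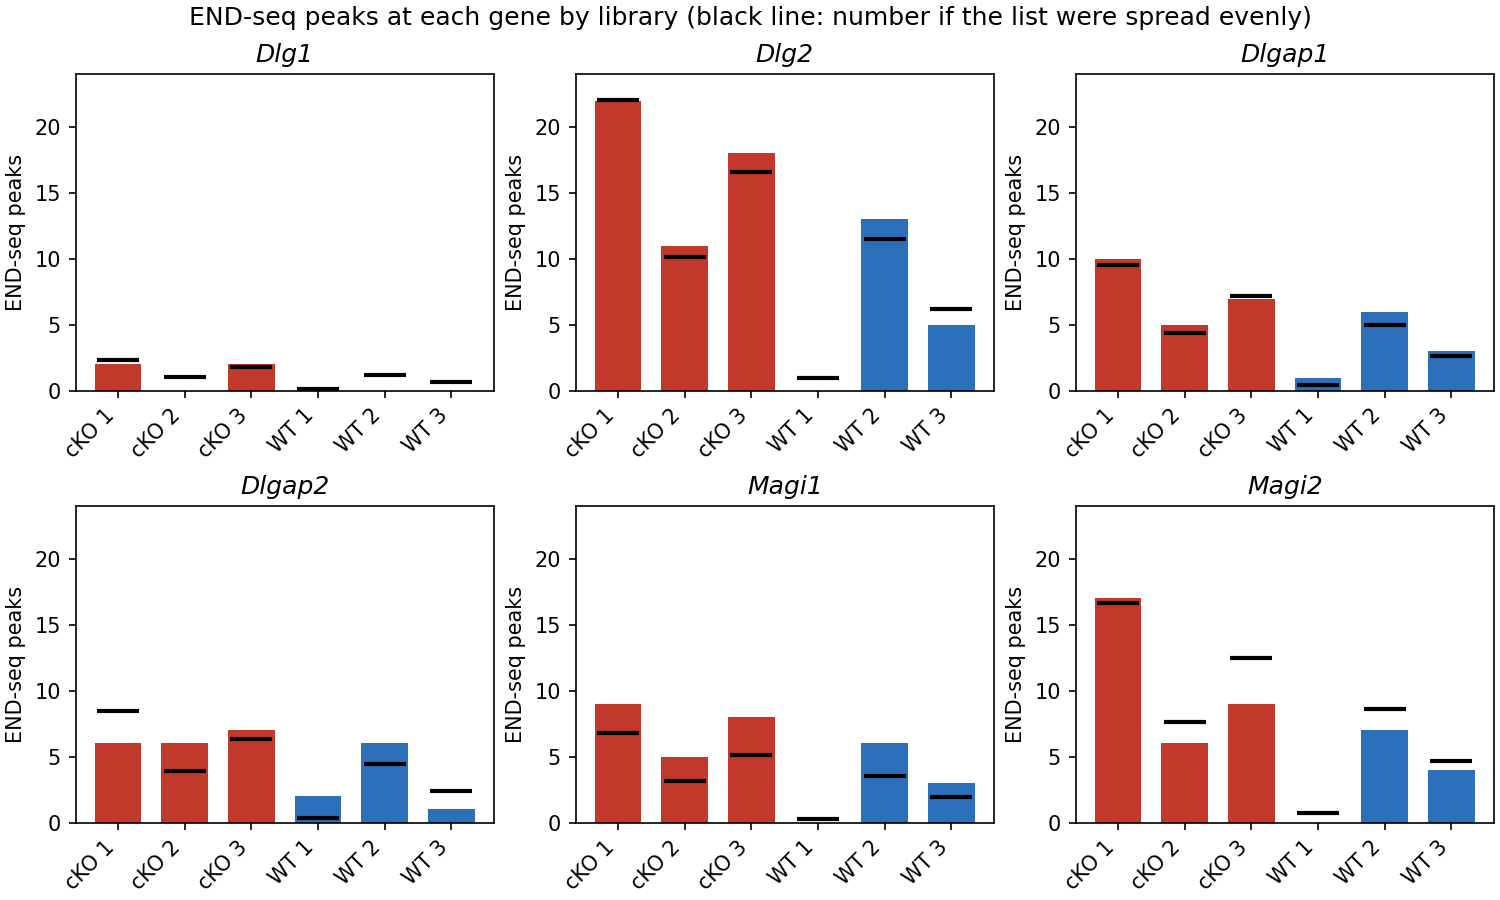
Number of END-seq peaks at each of the 6 genes in the 3 cKO and 3 WT libraries (bars); the black line is the number that an even spread of that library's list over the genome gives. Dlg2 ranges from 11 to 22 peaks in cKO and from 0 to 13 in WT, with bars near the black lines. Other genes depart from their lines. Dlgap2 has 6 peaks in cKO 1, where even spread gives 8.49, and 6 in cKO 2, where it gives 3.89. Magi1 lies above its line in every library but WT 1.

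No gene showed a difference between genotypes that passed the test. The exact permutation test over the 20 assignments of 3 and 3 libraries, two-sided, cannot give a p below 0.1, and with Benjamini-Hochberg adjustment over 21887 genes every adjusted p was 1. At none of the 6 genes did every cKO library have more peaks than every WT library, whereas this held for 2.44% of all protein-coding genes and for 29.2% of the 106 genes closest in length to the 6. By share of the list it again held for 0 of the 6, for 2.48% of all protein-coding genes and for 11.3% of the length neighbours. The reverse order, every WT library above every cKO library, was seen at 0 of the 6 genes by number or share, and at 0.00914% and 0.206% of all protein-coding genes. No gene of the 21887 had an unadjusted p under 0.05 by this test, which could not reach it.

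Dlg1, which lies on chromosome 16 from 31663443 to 31873356 (mm10) and at 210 kb is by far the shortest of the 6, was the least hit. It had 2, 0 and 2 peaks in cKO 1, cKO 2 and cKO 3, against 0 in each WT library, a difference of 1.33 peaks (exact permutation p = 0.4, adjusted p = 1). The lack of WT peaks depends on the window. A WT 2 peak lay just outside it (31659650 to 31659775), and with 10 kb on either side the difference was 1.0. Even spread gives 2.37, 1.09 and 1.78 peaks in the cKO libraries, against 0.107, 1.23 and 0.663 in the WT libraries. Its 4 peaks lay at 4 different places, and each place was seen in a single library. The 2 sites in cKO 1, 76.7 and 113 kb from the 5′ end, had folds of 22.7 and 21.2, and the site at 122 kb in cKO 3 had 13.7. The fold is the authors' ratio of a peak to the background of its own library. Folds of several libraries are printed side by side, but the median fold of a list ran from 8.27 in WT 3 to 16.3 in cKO 2. Gaps in fold between libraries or genotypes were therefore not tested and cannot be read as more or fewer breaks.

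Dlg2, on chromosome 7 from 90476188 to 92449246 and with 1.97 Mb the seventh longest protein-coding gene of the annotation, had the most peaks. The numbers were 22, 11 and 18 in cKO 1, cKO 2 and cKO 3, against 0, 13 and 5 in WT 1, WT 2 and WT 3. WT 2 exceeded cKO 2, and the cKO mean of 17.0 ± 5.57 and the WT mean of 6.0 ± 6.56 (SD, n = 3 each) differed by 11 peaks (exact permutation p = 0.2, adjusted p = 1). Per 10000 peaks of the list, Dlg2 had 7.40, 8.07 and 8.07 in the cKO libraries, against 0, 8.41 and 6.01 in the WT libraries. The 4 longer lists and WT 3 were thus alike in share, and WT 1, for which even spread gives 0.998 peaks, had none.

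The 69 Dlg2 peaks fell in 33 regions, spread from 22.3 kb to 1791 kb from the 5′ end. Of these regions, 19 were seen in 1 library, 14 in at least 2 and none in all 6. The 2 most widely shared lay at 1012 kb (chromosome 7, 91487945 to 91488185) and at 1617 kb (92092960 to 92093177) and were missed only in WT 1. At the first, the cKO folds were 42.1, 34.4 and 38.9, against 25.9 and 13.2 in WT 2 and WT 3. At the second they were 26.2, 27.3 and 29.1 in cKO, against 15.02 and 15.1 in WT 2 and WT 3. Another site at 1231 kb (91707214 to 91707464) had 38.6, 29.7 and 38.6 in cKO, against 20.1 in WT 2. Sites at 419 kb (90895264 to 90895550) and 705 kb (91181221 to 91181466) were held by all 3 cKO lists and by no WT list. The one at 419 kb reached 42.6 in cKO 1, 19.5 in cKO 2 and 12.8 in cKO 3, and the one at 705 kb had 21.3, 9.35 and 10.4. In both, the fold in cKO 1 was well above those in the other cKO libraries, each set against its own background. No region lay in the last 182 kb of the gene, the longest stretch without one.

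Dlgap1, on chromosome 17 from 69969073 to 70821413 (852 kb), had 10, 5 and 7 peaks in cKO 1, cKO 2 and cKO 3, against 1, 6 and 3 in WT 1, WT 2 and WT 3. The ranges overlapped, with a difference of 4.0 peaks (exact permutation p = 0.2, adjusted p = 1) that was 2.67 without cKO 1. Per 10000 peaks of the list it had 3.36, 3.67 and 3.14 in cKO, against 7.43, 3.88 and 3.61 in WT. The WT 1 value rests on 1 peak. The gene had 18 regions, 12 of them in 1 library. One of them, 361 kb from the 5′ end (chromosome 17, 70329696 to 70329900), was found in all 3 WT libraries and in cKO 1 and cKO 2. It was a weak site in most lists, with folds of 5.53 and 9.35 in cKO 1 and cKO 2, against 10.9, 5.29 and 8.40 in WT 1, WT 2 and WT 3. At 438 kb (70406788 to 70407017) the folds were close in the 4 libraries that held it, 30.9, 29.1 and 33.1 in cKO and 30.9 in WT 2. The site at 822 kb (70791154 to 70791336), which also lies in the long non-coding RNA gene Gm41609, had 39.8, 19.4 and 31.0 in cKO, against 23.98 in WT 2. A site at 341 kb (70309987 to 70310182) was in all 3 cKO and no WT libraries, with low folds of 11.8, 10.9 and 7.20.

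Dlgap2, on chromosome 8 from 14095776 to 14853426 (758 kb), had 6, 6 and 7 peaks in cKO 1, cKO 2 and cKO 3, against 2, 6 and 1 in WT 1, WT 2 and WT 3. Numbers in cKO were nearly equal although the lists differ in length more than 2-fold, and WT 2 had as many as 2 of the cKO libraries. The difference was 3.33 peaks (exact permutation p = 0.3, adjusted p = 1). Per 10000 peaks the values were 2.02, 4.40 and 3.14 in cKO, against 14.9, 3.88 and 1.20 in WT, and the difference in share, -3.47 over all libraries, was 0.644 without WT 1. The strand of Dlgap2 is not in the table used, so distances are from its lower coordinate.

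The Dlgap2 sites found in the most libraries lay close together. All 3 of its regions found in at least 4 libraries lay within 33.1 kb, a grouping singled out after the positions were seen. The site at 259 kb (chromosome 8, 14354326 to 14354599) had cKO folds of 43.6, 26.2 and 38.6, against 43.6 and 19.1 in WT 2 and WT 3. At 247 kb (14342803 to 14343028) the folds were 46.6, 34.8 and 40.1 in cKO, against 32.5 in WT 2, and at 226 kb (14321493 to 14321742) 35.9, 24.1 and 22.3 in cKO, against 8.82 in WT 2. Another strong site, at 524 kb (14620137 to 14620367), was held by all 3 cKO lists, with 47.5, 31.0 and 35.0, and by no WT list. It was the strongest of the 6 sites with this pattern at these genes. At or above its fold were 3.97%, 16.8% and 10.8% of all peaks in cKO 1, cKO 2 and cKO 3. WT 1 had both of its Dlgap2 peaks about 211 kb along, 1 of them at a site shared with WT 2 alone.

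Magi1, on chromosome 6 from 93675453 to 94283929 (608 kb, minus strand), had 9, 5 and 8 peaks in cKO 1, cKO 2 and cKO 3, against 0, 6 and 3 in WT 1, WT 2 and WT 3. The groups overlapped and differed by 4.33 peaks (exact permutation p = 0.2, adjusted p = 1), or by 2.83 without WT 1. Its density, in peaks per Mb, was above the average of the same list in every library but WT 1. The ratio of gene to genome average was 1.32, 1.60 and 1.56 in cKO 1, cKO 2 and cKO 3, against 1.69 and 1.57 in WT 2 and WT 3. Where it had peaks, the ratio did not separate the genotypes. In WT 1 an even spread gives 0.309 peaks, and none was found.

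Magi1 held the strongest site of the 6 genes, 1 of the 8 found in 5 libraries. It lay 198 kb from the 5′ end (chromosome 6, 94085672 to 94085953), with cKO folds of 53.5, 46.7 and 53.2, against 48.4 and 44.4 in WT 2 and WT 3. Within the lists, 1.17%, 1.53% and 0.945% of cKO peaks and 2.62% and 1.26% of WT 2 and WT 3 peaks were at or above those folds, so that it ranked near the top in each of the 5. A second site at 481 kb (93802476 to 93802756) had 50.7, 36.5 and 45.8 in cKO, against 25.6 and 7.51 in WT 2 and WT 3. Another at 534 kb (93749776 to 93750062) had 40.6, 20.8 and 19.2 in cKO, against 13.3 and 6.26 in WT 2 and WT 3. Both had spread-out folds, unlike the site at 198 kb. A weaker site at 509.6 kb (93774271 to 93774457) was in all 3 cKO and no WT libraries, with 13.8, 15.1 and 15.1. Of the 13 Magi1 regions, 8 lay in the last 40% of its length, and so did 6 of its 7 regions found in at least 2 libraries.

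Magi2, on chromosome 5 from 19219387 to 20704792 (1.49 Mb), had 17, 6 and 9 peaks in cKO 1, cKO 2 and cKO 3, against 0, 7 and 4 in WT 1, WT 2 and WT 3. WT 2 exceeded cKO 2, and the difference of 7.0 peaks (exact permutation p = 0.2, adjusted p = 1) was 3.83 without cKO 1. Its density was 1.02, 0.787 and 0.721 of the genome average in cKO 1, cKO 2 and cKO 3, against 0.810 and 0.860 in WT 2 and WT 3, with no peak in WT 1. Magi2 thus lay below the average of its list in 4 of the 5 libraries with a peak there. Of its 23 regions, 12 were in 1 library.

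The site of Magi2 in the most libraries lay 1161 kb from the 5′ end (chromosome 5, 20379956 to 20380162), with cKO folds of 33.4, 22.5 and 25.7, against 17.6 and 10.02 in WT 2 and WT 3. At 1432 kb (20651660 to 20651891) they were 34.9, 27.7 and 29.5 in cKO, against 26.9 in WT 2. At 1320.2 kb (20539474 to 20539694) cKO 1 had 17.1 and cKO 3 had 6.55, against 15.9 in WT 2. The site in all 3 cKO and no WT libraries lay at 729 kb (19948622 to 19948827), with low folds of 16.5, 10.05 and 11.8. Of the 11 Magi2 regions in at least 2 libraries, 8 were in the last 40% of its length. The other genes did not share this: it was 5 of 14 in Dlg2, 2 of 6 in Dlgap1 and, from the lower coordinate, 1 of 7 in Dlgap2, and the pattern in Magi1 and Magi2 was singled out after the positions were seen.

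**Figure D2:**
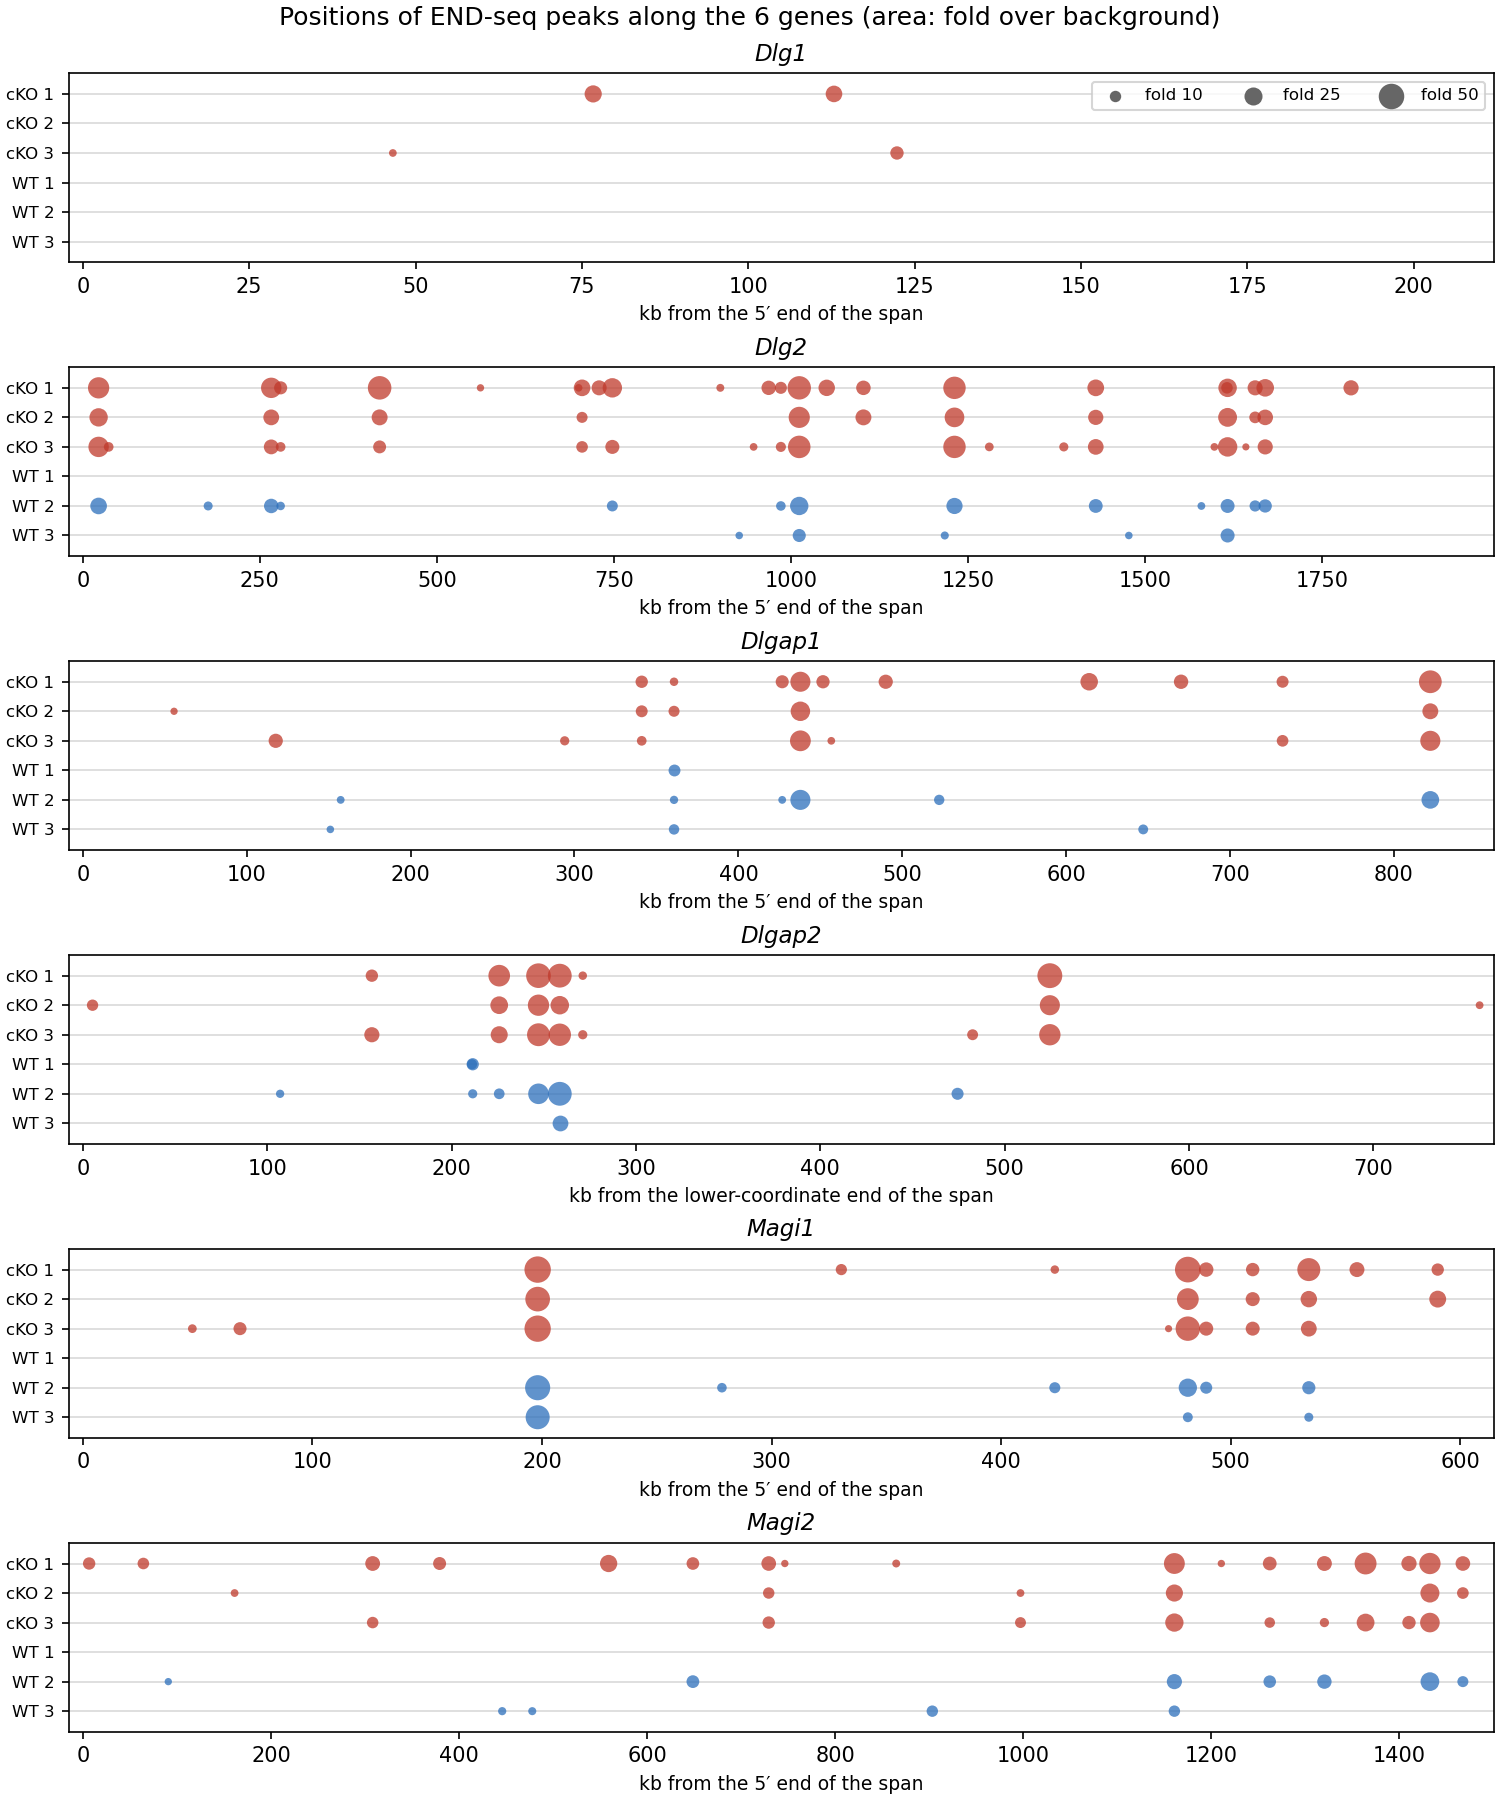
Position of each END-seq peak along the 6 genes (x axis, kb from the 5′ end of the span, or from the lower coordinate for Dlgap2) in the 3 cKO (red) and 3 WT (blue) libraries, with the area of a point proportional to the authors' fold over background. Dots in one column are the same region in several libraries: 45 of the 104 regions recur, and the column at 198 kb of Magi1 holds the highest folds.

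No peak overlapped the gene starts that could be looked up. RefSeq start windows (GRCm38.p6, 250 bases before to 50 after a start) were matched for 5 of the 6 genes, 13 windows in all, and none overlapped a peak of any list. At Dlg2, Magi1 and Magi2 every matched window lay inside the span, so the 5′ ends of these spans were not looked at. The first Dlg2 window began at 91090536, the first Magi2 window at 19226796, and the Magi1 windows reached no further than 93913940. The nearest peak was at Magi2, 590 bp before the window of a start on the plus strand, in cKO 1 alone (chromosome 5, 19226042 to 19226206, fold 11.8). The 250 bases before that start, chr5:19226796-19227045 on the plus strand, are shown because no other window had a peak as close. Capitals mark an alternating CG run of 12 bases, looked for after the sequence was seen.
Magi2: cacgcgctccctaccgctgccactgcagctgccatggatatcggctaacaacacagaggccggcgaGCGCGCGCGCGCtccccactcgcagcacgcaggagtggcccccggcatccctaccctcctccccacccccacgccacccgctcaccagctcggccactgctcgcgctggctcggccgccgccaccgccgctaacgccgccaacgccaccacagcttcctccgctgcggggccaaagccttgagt
The letters CGCGCGCG, the same on both strands, occur in 1.97% of the 32851 RefSeq windows over the same 250 bases. The other 12 windows lay 3418 to 52577 bp from the nearest peak.

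The regions at the 6 genes were spread over the spans without a pile-up at either end. Counted in 5 equal parts from the 5′ end (for Dlgap2 from its lower coordinate), the 104 regions numbered 17, 22, 23, 19 and 23. Genes differed: Dlgap2 had 7 of its 13 in the second of these parts and none in the middle one, and Dlgap1 had 1 of its 18 in the second and 7 in the middle one. Median distances between neighbouring regions were 26.3 kb in Dlg2, 33.2 kb in Dlgap1, 31.6 kb in Dlgap2, 29.8 kb in Magi1 and 57.9 kb in Magi2. Of the 104, 13 also lay in another annotated gene, in each case of a long non-coding RNA. The gene table has no exons, so exons and introns were not told apart.

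Where a site recurred, the summits lay close together, in part by construction, since only overlapping peaks were joined into a region. In the 45 regions seen in at least 2 libraries, the summits of the strongest peaks of the libraries lay within a median of 14 bp of each other, from 0 to 64 bp, and within 50 bp in 43 regions. Regions were 126 to 525 bp wide, with a median of 184 bp. Recurrence itself was like that of the genome. At the 6 genes 59 of 104 regions (56.7%) were in 1 library, against 57.5% of all regions. In 5 or more libraries were 8 of 104 (7.69%), against 8.35%, and in at least 1 library of each genotype 29 of 104 (27.9%), against 28.4%. None of the 104 was in all 6 libraries, as were 1.07% of all regions. Of the 8 in 5 libraries, 7 lacked WT 1 alone.

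Of the 23 regions with a peak in every cKO library, 17 also had one in WT. WT 2 held all 17, WT 3 held 7 and WT 1 none. The other 6, given above, were 5.77% of the 104, against 3.48% of all regions. The count rests on single libraries: it was 16 without WT 2 and 12 without cKO 2, can only grow or hold when a library is dropped, and was 0 when every list was shortened to 1345 peaks. The share of all regions was not computed for these settings. The 6 without a WT peak had lower median folds than the 17 with one. The medians were 18.9 against 35.9 in cKO 1, 13.0 against 26.2 in cKO 2 and 12.3 against 31.0 in cKO 3. The ranges overlapped, in cKO 1 from 11.8 to 47.5 against 21.5 to 53.5. Among the 6, the Dlgap2 site at 524 kb was above the median of the 17 in every cKO list. No region was in all WT and no cKO libraries, a pattern held by 0.0563% of all regions.

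**Figure D3:**
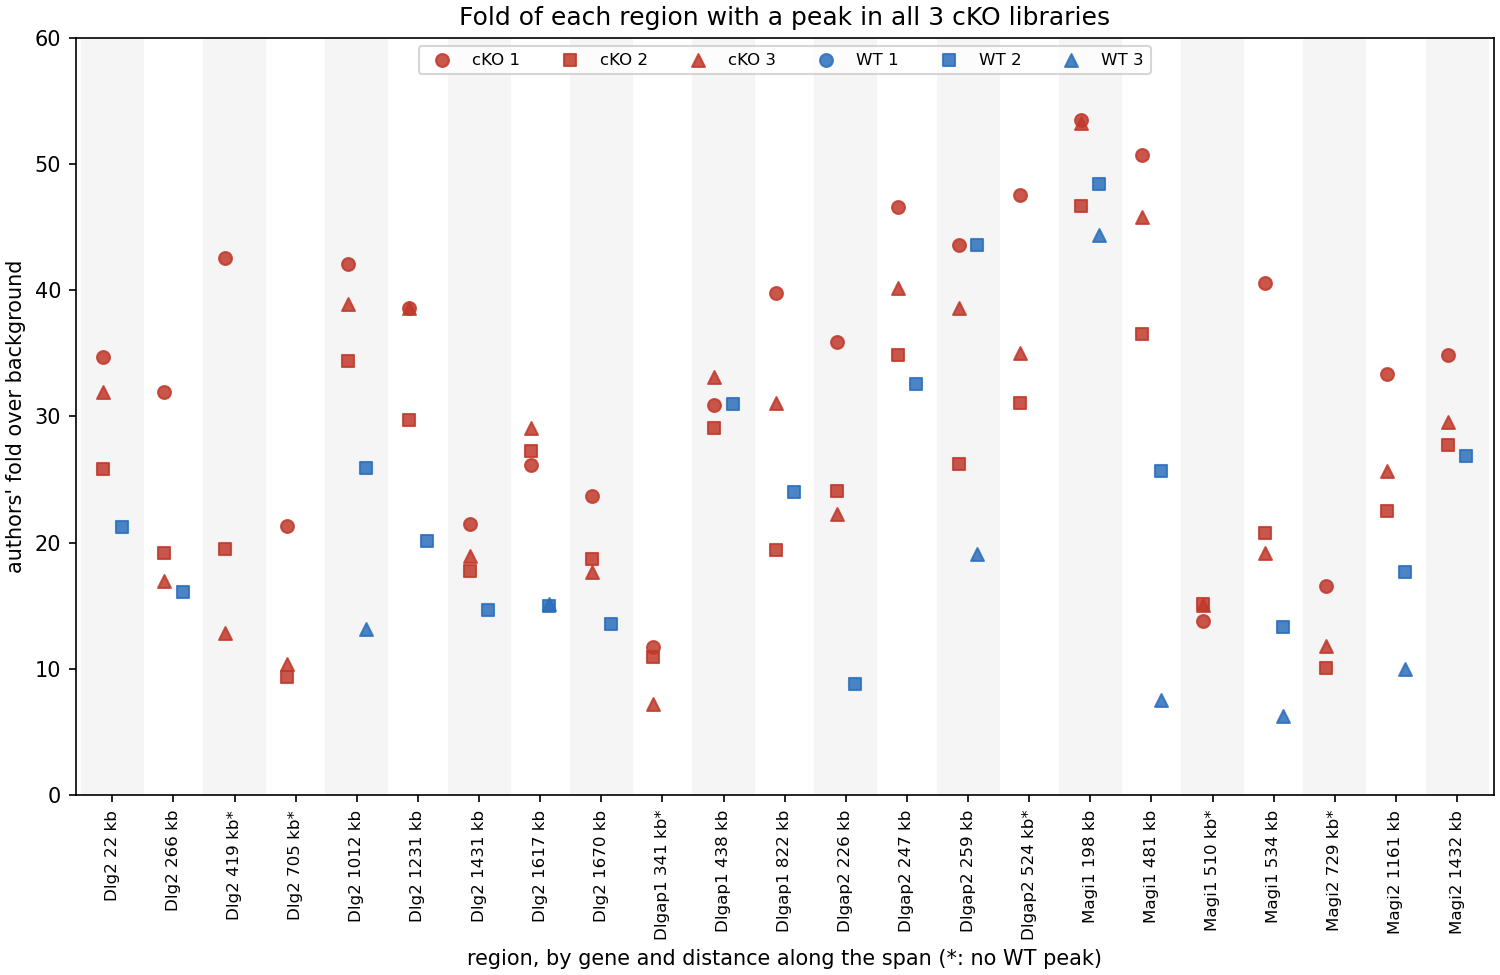
Authors' fold over background of the 23 regions at the 6 genes with a peak in all 3 cKO libraries (red; blue, WT libraries that hold the region; a star marks the 6 with no WT peak), each fold relative to the background of its own library. The Magi1 region at 198 kb lies between 44.4 and 53.5 in 5 libraries, and WT 1 has no point since it held none of the 23.

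Widely shared sites were the strong ones in most lists, as in the genome. Regions of the 6 genes in 5 libraries had a median fold of 41.4 in cKO 1, 26.8 in cKO 2 and 38.6 in cKO 3, against 21.6 in WT 2 and 11.6 in WT 3. Over all regions found in 5 or 6 libraries the medians were 39.8, 30.5 and 35.2 in cKO 1, cKO 2 and cKO 3, against 31.1 and 17.7 in WT 2 and WT 3. The 6 genes were thus lower in cKO 2, WT 2 and WT 3 and higher in cKO 1 and cKO 3. All regions of cKO 1 found in 1 library had a median of 8.99. At the 6 genes those in a single library had 13.5, 4.68 and 5.89 in the cKO lists, against 5.77 in WT 2 and 5.01 in WT 3. Some of the 8 were weak in some lists: the Dlgap1 site at 361 kb was below the list median in cKO 1, cKO 2 and WT 2, the Magi1 site at 481 kb was below it in WT 3, and the Magi1 site at 534 kb in WT 2 and WT 3. Over all peaks at the 6 genes, the median fold was 16.9, 19.5 and 13.7 in cKO 1, cKO 2 and cKO 3, where the full lists had 15.6, 16.3 and 12.7. It was 10.9, 11.6 and 7.51 in WT 1, WT 2 and WT 3, where the full lists had 8.40, 13.5 and 8.27. The genes were thus slightly above their lists in cKO and WT 1, and slightly below in WT 2 and WT 3.

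Most WT 2 sites at these genes were also found in cKO. Of the 38 regions of WT 2 at these genes, 29 (76.3%) were also in a cKO library, as were 80.8% of all WT 2 regions. For WT 3 it was 8 of 16 (50%), against 60.4% of all its regions, and for WT 1 it was 1 of 3. In the other direction, 29 of 66 regions of cKO 1 (43.9%), 20 of 33 of cKO 2 (60.6%) and 23 of 51 of cKO 3 (45.1%) had a WT peak, against 39.8%, 63.5% and 48.2% of all their regions.

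Against genes of like length, the 6 had densities within the range of their neighbours. Each was set beside the 20 protein-coding genes nearest to it in length. In cKO, Dlg2 had 8.61 ± 2.82 peaks per Mb (SD, n = 3) where its neighbours had a median of 7.07, and 17 of the 20 were lower. Magi1 had 12.01 ± 3.41 peaks per Mb in cKO, with a neighbour median of 10.8, and 4.91 ± 4.91 in WT, with a neighbour median of 3.38. Dlg1, Dlgap1, Dlgap2 and Magi2 had 6.29, 8.58, 8.34 and 7.17 peaks per Mb in cKO, with neighbour medians of 5.52, 8.52, 8.18 and 7.40. In WT, Dlg1 had no peak and its neighbours a median of 3.14 peaks per Mb, and 5 of the 20 had none either. The WT densities of Dlg2, Dlgap1, Dlgap2 and Magi2 were 3.04, 3.90, 3.95 and 2.47, with neighbour medians of 2.74, 2.86, 2.92 and 2.89. None of these gaps was tested.

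Dlgap1 and Dlgap2 had a peak in all 6 libraries, and Dlg2, Magi1 and Magi2 in every library but WT 1. That makes 2 of the 6 genes with a peak in all 6 libraries, against 1.25% of all protein-coding genes and 31.1% of the 106 length neighbours. At least 5 libraries hit 5 of the 6, against 8.2% of all protein-coding genes, and all 3 cKO libraries hit the same 5, against 14.7%. Genes of like length did so almost without exception. All 3 cKO libraries hit 20, 20, 19, 20 and 20 of the 20 neighbours of Dlg2, Dlgap1, Dlgap2, Magi1 and Magi2, and 11 of those of Dlg1. None of the 6 was hit in all cKO and no WT libraries, a pattern held by 1.43%. In order of peaks per Mb in cKO, Magi1 came first and Dlg2, Dlgap1, Dlgap2, Magi2 and Dlg1 after it. Genes next to each other in this order differed by less than the larger of their SDs, which include the spread in list length, and the order was not tested.

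**Figure D4:**
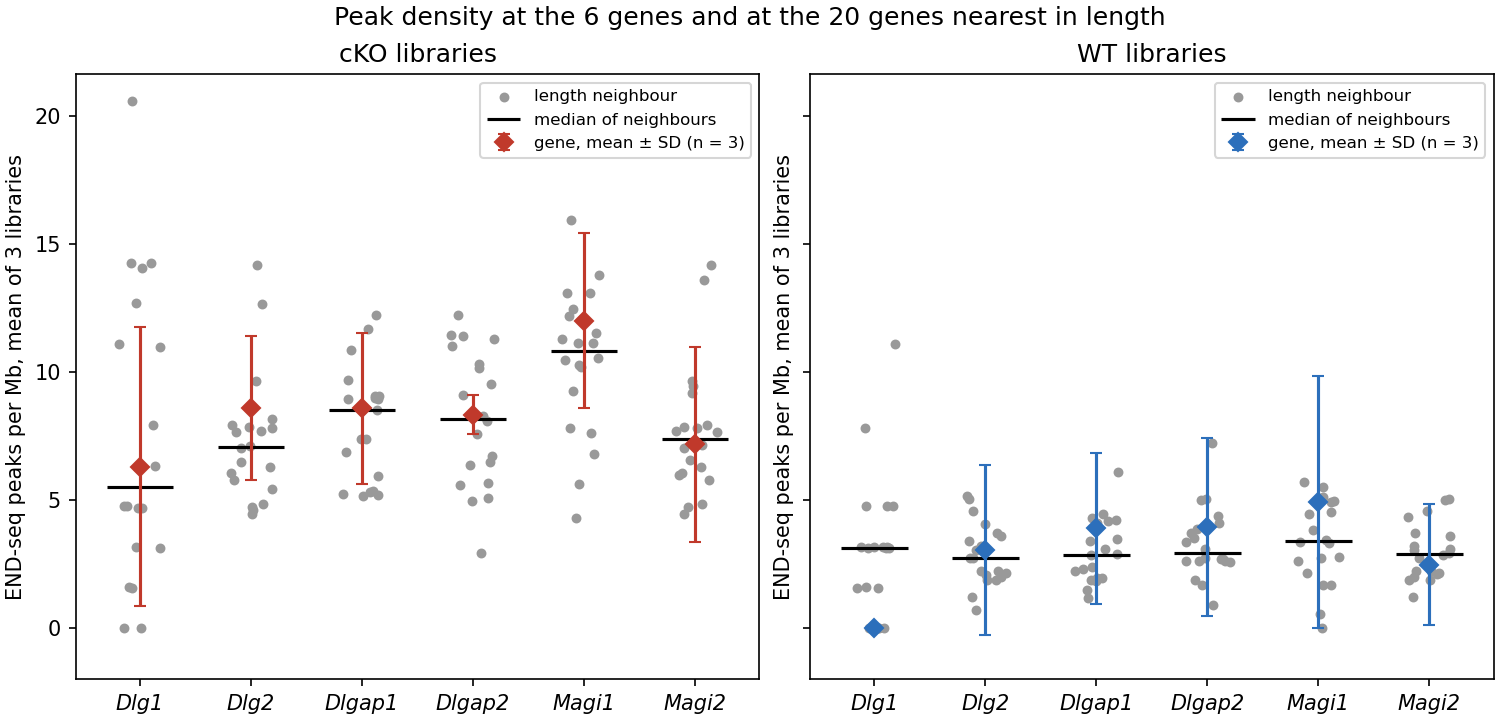
END-seq peaks per Mb, mean of 3 libraries, at each of the 6 genes (diamond with SD, n = 3) and at the 20 protein-coding genes nearest in length (grey points, black line at their median), in cKO and in WT. Each diamond lies among its neighbours in cKO, and in WT Dlg1 lies at 0, where its neighbours have a median of 3.14.

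The genes whose peak numbers over the 6 libraries were most like those of each member, by the sum of absolute differences, were looked for among the 20 length neighbours and are therefore of like length. For Dlg2 the closest was Lsamp, a neural adhesion gene that differed by 6 peaks in all. Lsamp had 21, 9 and 17 peaks in cKO, against 0, 12 and 6 in WT. For Magi2 they were Ctnna3, which encodes a catenin of the intercalated disc, and Fhit, each differing by 7 peaks. For Magi1 they were Lpp and Dscam (3 and 4), for Dlgap1 Npas3 and Adgrl3 (5 each), for Dlgap2 Zbtb20 and Exoc4 (10 each) and for Dlg1 Atg4a and Gm7247 (3 each).

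Shorter relatives of the 6 had few peaks. Of the other 7 Dlg, Dlgap and Magi genes, 3 had a peak in at least 2 of 3 cKO libraries and none in at least 2 of 3 WT libraries, where 23.1% and 9.56% of all protein-coding genes did. Dlgap4 had 3, 1 and 1 peaks in cKO 1, cKO 2 and cKO 3, against 0, 1 and 0 in WT 1, WT 2 and WT 3, and Magi3 had 1, 2 and 0 in cKO, against 0, 1 and 0 in WT. Dlgap3 had 1, 0 and 1 in cKO and none in WT. Dlg3 and Dlg5 had 1 peak each, in cKO 1, Dlg4 had 1, in WT 2, and Dlgap5 had none. The median length of these 7 genes was 68.7 kb, against 805 kb for the 6.

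Of 11 further membrane-associated guanylate kinase genes, 5 (45.5%) had a peak in 2 or more cKO libraries and 2 (18.2%) in 2 or more WT libraries. Over all protein-coding genes the shares were 23.1% and 9.56%. The median length was 88.9 kb in this list and 17.2 kb over all protein-coding genes. No list of relatives was matched for length, so a higher share cannot be told apart from greater length. Tjp1, which encodes the tight junction protein ZO-1, had 3, 2 and 3 peaks in cKO, against 0, 3 and 1 in WT. Cask had 1 peak in every library but WT 1. Of 15 synaptic partners, with a median length of 67.2 kb, 7 and 3 (46.7% and 20%) were hit on the same basis in cKO and WT. In 2 of them, Nlgn1 (911 kb) and Grip1 (634 kb), every cKO library had more peaks than every WT library. This held for 2.44% of all protein-coding genes and 29.2% of the length neighbours of the 6. Grip1, which encodes a PDZ scaffold for glutamate receptors, had 10, 6 and 9 in cKO, against 0, 4 and 1 in WT. Shank2, which encodes a binding partner of the Dlgap proteins, had 4, 2 and 2 in cKO, against 0, 2 and 1 in WT, and Lin7a had 3, 1 and 1 in cKO, against 1, 2 and 0 in WT.

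Of 16 intercalated disc partners, 5 (31.2%) were hit in at least 2 cKO libraries and 2 (12.5%) in at least 2 WT libraries. Over all protein-coding genes the shares were 23.1% and 9.56%. The median length of the 16 was 52.9 kb. No peak in any list was found at 8 of the 16, as at 13504 of the 21887 protein-coding genes. Ctnna3 led them, with 17, 8 and 12 peaks in cKO, against 0, 9 and 4 in WT. Ank3, which encodes ankyrin-G, had 3, 2 and 2 in cKO, against 0, 3 and 2 in WT. Dsg2, which encodes a desmosomal cadherin, had 2, 2 and 1 in cKO, against 0, 1 and 0 in WT. The median difference in peak number between cKO and WT was 0 in this list and 0.333 peaks in the other 3 lists, against 0 over all protein-coding genes and 4.17 over the 6 genes, whose median length was 805 kb where that of all protein-coding genes was 17.2 kb.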

How the data were processed

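END-seq peaks from 3 cKO and 3 WT libraries were used. The series has 16 samples, and its lamin A lists, on GRCm39, were not used here. Peaks were called per library, in the layout of MACS narrowPeak output, per the file headers. For END-seq, FastQC, SEACR, DiffBind and mm10 are named in the submitters' processing notes, with no roles or versions, and the aligner is not named. Every peak carries the authors' fold, a linear ratio to its own library's background, per the file headers. The deposited −log10 q-values were used for filtering and, followed by the fold, to rank peaks for the lists of equal length. The deposited p-values and score were not used. All deposited peaks have a q of at most 0.01 and were kept on chromosomes 1 to 19, X and Y.

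From these, peaks were counted per gene span plus 1000 bp each side (RefSeq table of GRCm38.p6, of which mm10 is the UCSC name), and merged into regions where they overlapped by 1 bp. Positions are 1-based. Pals1 and Pals2 were matched as Mpp5 and Mpp6. Strand came from the RefSeq start windows. Even spread means list length times the gene's share of the length between the outermost peaks. Exact permutation tests compared genotypes, with Benjamini-Hochberg adjustment over 21887 genes. Members and lists were chosen with earlier results of these data known.

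Named were the 6 genes, up to 3 regions each by libraries and then mean fold, all regions in every cKO and no WT library, 2 most similar length neighbours per gene, all paralogs, and up to 3 genes of each other list by libraries and then peaks. A few of these are not reported here. Alternatives were a q of 0.00001, lists of equal length, other windows, other joining and recurrence rules, other neighbours, each library left out and the replicate number as a block. Counting and tests were tested on simulated data. Python 3.11.15, numpy 2.4.6, pandas 2.3.3 and matplotlib 3.10.9 were used.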

Additional observations from a re-analysis of the deposited data

How the results depend on the processing

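Other settings gave 260 values, of which 221 kept their direction (genotype differences) or stayed within the SD between libraries or 1.5 times a count. Some of the 221 could not move. The replicate block leaves each mean difference as it is, and gene spans without the 1 kb keep every region at the 6 genes. Exact tests with 3 mice each cannot pass 0.05, so their p values say nothing on stability, and adjusted p was 1 throughout. The depth of the lists is unknown.

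With every list shortened to 1345 peaks, 8 regions remained at the 6 genes, 0 in all cKO and no WT libraries, 0 genes were hit in all 6 libraries and 2 exceeded their neighbours in cKO. The difference in peak number was then 0 at Dlg1, Dlg2 and Magi2, as in share, 1.0 at Magi1 and -0.333 at Dlgap1 and at Dlgap2, and the WT median fold stood 5.53 above the lists. With lists of 8320 peaks and no WT 1, chosen after seeing the data, there were 35 regions, 7 in all 5 lists and 2 in all cKO and no WT lists. Then 5 genes were hit in all lists and 3 exceeded their neighbours in cKO, and the cKO median fold stood 3.16 above the lists. The difference in number was 0 at Dlg1, as in share, 1.0 at Dlg2, -0.500 at Dlgap1 and -1.33 at Magi2, and in share 3.00 at Dlgap2 and -1.60 at Magi2. Shortening removes weak peaks by construction.

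With 10 kb windows, or 50 neighbours, 3 genes exceeded their neighbours in cKO. With at least 2 of 3 libraries, 15 regions were in cKO alone and 1 in WT alone. Shares over all regions were computed for the main settings only, and the longest lists are from cKO, so these counts have no background to be read against. With at least 5 of 6 libraries, 5 genes were hit. Leaving out 1 library gave 6 to 16 regions held by all cKO and no WT libraries, 0 to 1 in the reverse, 0 to 7 in all libraries, 2 to 5 genes hit in all, and 2 to 4 above their neighbours in WT. Differences in share ranged from -6.19 to 0.644 at Dlgap2 and from -0.317 to 1.62 at Magi1, both crossing 0 without WT 1.

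The replicate numbers did not pair the libraries: same-numbered libraries had correlations of 0.028, -0.055 and -0.072. With the number as a block, an exact sign test within pairs was run, whose smallest p is 0.25. The difference in peak number at Dlg2 was again 11 (exact sign test p = 0.5), since pairing leaves a mean difference as it is. With that smallest p no call could change, so the block says nothing on stability.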
